A study of Rattus norvegicus with 48 samples.

Results

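The 75 genes described here encode the proteins with which cells dock and fuse vesicles, above all synaptic vesicles in neurons. They were taken by gene symbol: every symbol on the array that begins with Syt and a digit or l, Stx and a digit, Stxbp, Vamp, Snap and a digit, Sv2, Rab3 or Cplx, and Syn1, Syn2 and Syn3. They held 111 of the 31042 probe sets tested and were 75 of the 14217 genes that the array names. A gene was represented in each tissue by the probe set with the highest mean there. The prefix Rab3 also took in 11 Rab GTPases, from Rab30 to Rab39a, that are not of the Rab3 group. They are kept as members and named apart, and 64 genes remained without them. Snap91, taken by its prefix, is the clathrin adaptor AP180 and no SNARE.

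The rats were male Sprague-Dawley, and transcripts of brain cortex and of liver were measured after 1 oral dose of RDX, a nitramine explosive that causes seizures at high doses, in a gel capsule. The doses were 3 and 18 mg/kg and were set below those that cause seizures. Tissue was taken at 0, 4, 24 and 48 h, and each of the 16 combinations of tissue, dose and time had 3 arrays. The 0 h groups also carry a dose label, and a later group was set against the 0 h group of its own dose and tissue. No age is given, and the labels do not tie arrays to animals, so p-values measure the spread between arrays, which may be technical.

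In a neuron, transmitter leaves by fusion of synaptic vesicles with the plasma membrane. The vesicle SNARE synaptobrevin (Vamp1 and Vamp2) winds together with the syntaxin Stx1a and SNAP-25 on the target membrane, complexins hold the partly wound complex in check, and synaptotagmins trigger fusion when they bind calcium. Rab3 GTPases and synapsins govern how vesicles are docked and held in reserve, and SV2 glycoproteins sit in the vesicle membrane. Cells outside the nervous system run the same cycle with broadly expressed relatives, such as Snap23, Vamp3, Vamp8, Stx4 and the syntaxin-binding protein Stxbp2.

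Promoters of 3 members are shown: Syn1 and Vamp1, far higher in cortex, and Vamp8, higher in liver. Syn1 and Vamp1 were the only 2 members whose windows held the first motif named below. Their matches are thus no finding about members picked by tissue. Each line gives the 250 bases before the RefSeq transcription start on build GRCr8, 5′ to 3′ on the strand of the gene. Capitals mark TGACGTCA, the full cyclic AMP response element, in Syn1 (chrX:3725495-3725744, plus strand) and Vamp1 (chr4:159698644-159698893, plus strand), and GGGCGG, the core of a GC box, in Vamp8 (chr4:106005643-106005892, minus strand).
Syn1: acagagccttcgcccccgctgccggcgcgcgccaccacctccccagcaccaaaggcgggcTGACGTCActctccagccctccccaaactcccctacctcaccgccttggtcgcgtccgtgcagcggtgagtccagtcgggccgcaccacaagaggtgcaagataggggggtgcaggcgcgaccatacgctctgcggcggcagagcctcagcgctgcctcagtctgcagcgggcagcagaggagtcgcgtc
Vamp1: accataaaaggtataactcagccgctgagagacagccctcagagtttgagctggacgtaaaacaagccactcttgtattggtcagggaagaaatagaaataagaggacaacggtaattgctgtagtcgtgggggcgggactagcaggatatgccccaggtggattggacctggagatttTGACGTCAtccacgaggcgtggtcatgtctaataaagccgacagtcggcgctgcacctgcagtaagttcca
Vamp8: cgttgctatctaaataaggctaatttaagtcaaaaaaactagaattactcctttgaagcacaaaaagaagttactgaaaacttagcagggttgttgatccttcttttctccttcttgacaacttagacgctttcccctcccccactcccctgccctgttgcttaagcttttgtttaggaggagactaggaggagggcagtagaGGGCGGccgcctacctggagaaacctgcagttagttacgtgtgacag
The first base of the marked match lay at -190 in Syn1, at -71 in Vamp1 and at -47 in Vamp8, counted from the start site. Of the 75 members 59 had a promoter window in the table. TGACGTCA, which reads the same on both strands, was found in 2 of the 59 (3.39%), against 1.59% of all 33469 windows. Both were among the 31 of these members higher in cortex, and none was among the 24 higher in liver. GGGCGG on either strand was found in 35 of the 59 (59.3%), against 30.5% of all windows. It was found in 22 of the 31 members higher in cortex and 11 of the 24 higher in liver. Vamp1 also holds it, in lower case above. TATAAA on either strand was found in 3 of the 59 (5.08%), against 12.9%. Members are counted here as genes with a match in any of their windows, and the background as single windows. The shares are therefore not like for like, and no enrichment was tested. These are letter matches, and no binding was measured.

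Before the results, 3 properties of the arrays have to be given. RNA integrity was read from actin as its 3′ minus its 5′ control probe set in log2 units, a gap that grows as RNA is broken. It lay between 1.65 and 4.61 in cortex and was over 3 in 10 of the 24 cortex arrays. The mean of 7 hepatocyte transcripts was over 8 in 6 cortex arrays and at most 7.48 in the other 18, while it lay between 10.98 and 13.77 in liver. The SD of all log2 values of an array lay between 2.07 and 2.16 in cortex; in liver it was 1.38 in 18 mg/kg 4 h replicate 1, 1.49 in 3 mg/kg 0 h replicate 2 and at least 1.82 in the other arrays. All 7 neuronal markers lay above the median of all probe sets in cortex and at or below it in liver. In bulk tissue, fewer cells of a type and less RNA per cell cannot be told apart.

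Cortex and liver differed in most of the members. Snap25, Stx1a, Vamp1 and Vamp2, the neuronal SNAREs, were 242, 47.6, 18.9 and 7.90-fold higher in cortex, while of the broadly expressed relatives Snap23, Vamp8 and Stxbp2 were 2.52, 6.68 and 3.37-fold higher in liver. Vamp3, another of them, was 1.53-fold higher in cortex (adjusted p = 6.6e-07, limma), and Stx4 had a difference of -0.17 that did not pass (adjusted p = 0.23). In the fit of all 48 arrays 68 of the 75 members passed (limma, adjusted p under 0.05), 41 of them higher in cortex and 27 higher in liver. Among all probe sets 89% passed, 34.5% higher in cortex and 54.5% higher in liver, so the share that passed says little about the members. At least 4-fold higher in cortex were 27 members, against 9.88% of all probe sets, and at least 4-fold higher in liver were 4, against 6.21%. In 27 members every cortex array lay above every liver array (16.6% of all probe sets), and in 8 members the reverse held (14.6%). Without the 11 other Rab genes 36 members were higher in cortex and 22 in liver. The median difference of the 75 members was 0.36. In Stxbp5, Cplx3, Cplx1, Stx1a and Syn2 the probe set compared averaged 6.13, 4.68, 5.56, 4.93 and 5.38 in liver. The probe sets that represent them in liver averaged 6.93, 5.78, 5.89, 5.15 and 5.70 there. In Rab3ip the probe set compared averaged 6.60 in cortex, and the representing 1 there 7.24. The folds given for these genes depend on that choice.

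**Figure D1:**
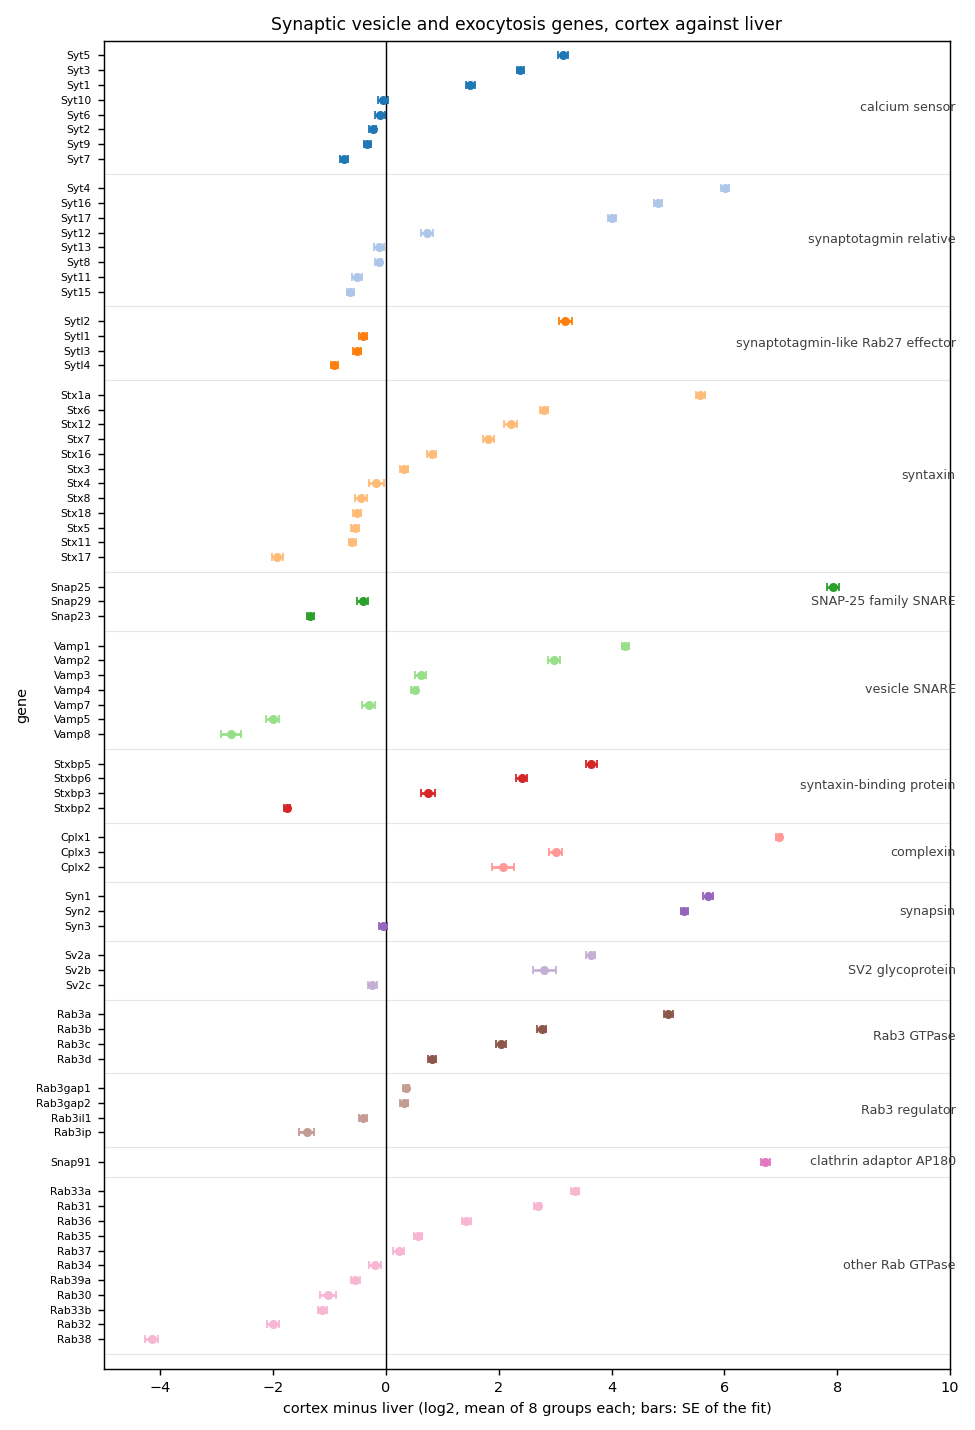
Difference between cortex and liver in log2 units for the 75 members, each at its probe set with the highest mean over 48 arrays, grouped by role. Points are the mean of 8 cortex groups minus that of 8 liver groups and bars the SE of the fit; Snap25 lies farthest to the right at 7.92 and Rab38 farthest to the left at -4.15.

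Among the SNARE proteins, Snap25, the SNARE of the presynaptic membrane, had the largest difference. It ranged from 13.06 to 13.44 over the 24 cortex arrays (median 13.27) and from 4.51 to 6.58 in liver (median 5.22), a difference of 7.92 ± 0.11 (SE; adjusted p = 2.2e-40). Its broadly expressed relative Snap23 went the other way, from 7.08 to 7.75 in cortex and from 7.84 to 9.15 in liver, a difference of -1.34 ± 0.063 (adjusted p = 1.1e-21). Neither gene's arrays overlapped between the tissues. The syntaxins divided too: Stx1a, the partner of Snap25, lay between 9.98 and 11.16 in cortex and was higher there by 5.57 ± 0.083 (adjusted p = 7.2e-39), while Stx17, the syntaxin of autophagosomes, was higher in liver by 3.79-fold (adjusted p = 4e-20). Of 12 syntaxins 6 were higher in cortex and 5 in liver. The endosomal syntaxins Stx6, Stx12 and Stx7 were 6.98, 4.64 and 3.52-fold higher in cortex.

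Of the 7 vesicle SNAREs 4 were higher in cortex and 3 in liver. Vamp1 lay between 10.70 and 11.39 in cortex and between 6.25 and 7.70 in liver, a difference of 4.24 ± 0.062 (adjusted p = 4.6e-39). Vamp2, the main synaptobrevin of the forebrain, was 7.90-fold higher in cortex, with arrays from 9.46 to 11.19 against 6.44 to 7.77. At the other end Vamp8, which serves late endosomes and regulated secretion outside neurons, lay between 7.67 and 8.84 in cortex. In liver its median was 11.35, with 11.57 as the highest array and 7.58 as the lowest, which was 18 mg/kg 4 h replicate 1, the array with the smallest SD. Its difference was -2.74 ± 0.17 (adjusted p = 1.8e-17), and that single array set the overlap between the tissues. Vamp5, found in muscle and endothelium, was 4.02-fold higher in liver.

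The regulators of fusion were mostly cortical. All 3 complexins were higher in cortex: Cplx1 by 6.97 ± 0.054, with arrays from 12.40 to 12.70 against 5.03 to 6.05, Cplx3 by 3.01 ± 0.12 and Cplx2 by 2.08 ± 0.19. Cplx2 was the most variable member in cortex, from 5.84 to 9.37, and overlapped liver. Of the proteins that bind syntaxins, Stxbp2 was higher in liver (7.20 to 8.18 against 5.61 to 6.03; 3.37-fold) and Stxbp3 was higher in cortex by 1.67-fold. Tomosyn (Stxbp5), an inhibitor of SNARE assembly, was 12.5-fold higher in cortex and amisyn (Stxbp6), another such inhibitor, 5.29-fold.

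The synaptotagmins were split. Of 8 calcium sensors 3 were higher in cortex, 3 higher in liver and 2 not past the threshold. Syt1, the fast sensor of most forebrain synapses, was measured by a single probe set of low level in cortex, from 5.87 to 6.80 with a median of 6.37, near the median of all probe sets (6.24). It was 2.82-fold higher in cortex (adjusted p = 1.5e-20) without overlap. Syt7, the slow sensor, was higher in liver by 1.67-fold. Of the relatives that bind calcium weakly or not at all, Syt4 was higher in cortex by 6.01 ± 0.066, Syt16 by 4.83 ± 0.076 and Syt17 by 4.00 ± 0.075. Among the synaptotagmin-like proteins, which tether granules through Rab27, Sytl2 was 9.05-fold higher in cortex, and Sytl1, Sytl3 and Sytl4 were higher in liver by 1.32 to 1.89-fold.

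Synapsins, SV2 and Rab3 completed the vesicle set. Syn1 lay between 10.64 and 12.24 in cortex and between 5.13 and 6.15 in liver, and Syn2 between 10.45 and 10.94 against 5.05 to 6.18, without overlap in either. Syn3 had a difference of -0.05 (adjusted p = 0.54). Sv2a (8.86 to 10.11 in cortex) was 12.4-fold and Sv2b (10.09 to 13.03) 7.0-fold higher in cortex, and Sv2c was 1.18-fold higher in liver. All 4 Rab3 GTPases were higher in cortex, from Rab3a, the main Rab of synaptic vesicles (11.93 to 12.45 in cortex), at 32.2-fold to Rab3d, known from exocrine glands, at 1.76-fold. Rab3ip, an exchange factor that loads Rab proteins with GTP, was 2.65-fold higher in liver. Snap91 was 106-fold higher in cortex. Of the 11 other Rab genes 5 were higher in cortex and 5 in liver; the largest difference among them was that of Rab38, a Rab of lysosome-related organelles, at 17.8-fold higher in liver (7.49 to 10.50 against 5.37 to 5.97).

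The rest of the release pathway, from lists of genes that are no members, was also higher in cortex for the most part. Of 16 measured vesicle proteins and transporters 12 were higher in cortex and 3 in liver, of 21 active zone and priming genes 13 and 7, of 19 vesicle retrieval genes 14 and 3, and of 4 SNARE disassembly genes 4 and 0. The member of each list with the smallest p was Synpr (6.45), Rimbp2 (5.42), Dnm1 (6.34) and Nsf (4.37), all as the log2 difference between cortex and liver. The deposited values carry no detection calls, so a level near 5 could not be told apart from background, and folds against such levels are limited by it.

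After dosing, no member passed in cortex against 0 h. In the 6 comparisons of 4, 24 and 48 h with 0 h, limma called 0 of the 75 members. Among all 31042 probe sets it called 0.0741% at 24 h after 3 mg/kg and 0% in each of the other 5 comparisons. At an unadjusted p under 0.05 were 7, 10 and 9 members at 4, 24 and 48 h after 3 mg/kg (9.33, 13.3 and 12%), against 12.6, 14.4 and 13% of all probe sets. After 18 mg/kg there were 3, 3 and 11 members (4, 4 and 14.7%), against 11, 5.99 and 16.6%. The smallest adjusted p of any member was 0.11, for Vamp5 at 48 h after 18 mg/kg. Arrays of the groups did not overlap in 12, 14 and 21 members after 3 mg/kg (16.1, 19.6 and 20.6% of all probe sets) and in 14, 6 and 16 after 18 mg/kg (17, 8.91 and 14.8%). All 6 later groups together against both 0 h groups called 0 members, with 0 at an unadjusted p under 0.05, and 0.00322% of all probe sets.

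At their representing probe sets the genes of the release core had narrow intervals where their arrays were even and wide ones where they were not. Snap25 changed by between -0.26 and 0.10 over the 6 comparisons, and no 95% interval reached beyond -0.42 or 0.26. Cplx1 lay between -0.21 and 0.05 (intervals within -0.38 and 0.21), Syn2 between -0.11 and 0.28 (within -0.31 and 0.48) and Rab3a between -0.16 and 0.21 (within -0.43 and 0.48). Changes of 1 log2 unit were thus outside the intervals of these 4 representing probe sets at every time and dose. This does not extend to the other probe sets of these genes: that of Cplx1 read 6.52, 6.21 and 7.91 at 0 h of 3 mg/kg and 7.80, 7.75 and 8.38 at 4 h. Stx1a, Vamp2, Syt1 and Sv2a had intervals that reached at most 1.05 in size. Syn1 (within -1.33 and 1.29), Sv2b (within -2.29 and 1.20) and Cplx2 (within -3.18 and 3.03) were less well bounded.

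The members with the smallest p are given by array. Snap25 read 13.42, 13.30 and 13.36 at 0 h of 3 mg/kg and 13.17, 13.06 and 13.17 at 48 h, lower in every array (-0.23, adjusted p = 0.29, limma). Syn2 read 10.45, 10.52 and 10.73 at 0 h of 18 mg/kg and 10.73, 10.94 and 10.87 at 4 h (0.28, adjusted p = 0.45). Neither pair of groups overlapped, and neither difference passed. Vamp3 at 24 h after 18 mg/kg (10.28, 10.15 and 10.25, against 9.95, 10.04 and 9.93) and Syt1 at 4 h after 3 mg/kg (6.74, 6.80 and 6.80, against 6.16, 5.98 and 6.55) were likewise apart, with adjusted p-values of 0.82 and 0.34.

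Vamp5 had the smallest p at 24 h after 3 mg/kg (6.93, 6.95 and 7.11, against 6.46, 6.53 and 6.72; adjusted p = 0.15, limma) and at 48 h after 18 mg/kg. In the latter its arrays read 6.88, 6.97 and 6.73 at 0 h in that dose group and 6.25, 6.60 and 6.38 at 48 h. The groups did not overlap, and the difference did not pass (adjusted p = 0.11, limma). Leaving out 18 mg/kg 48 h replicate 2 brought 6 members past the threshold in this comparison (Rab36, Sv2a, Syn1, Syt6, Syt10 and Vamp5). The share of all probe sets that passed without it is not given here, so the count is not read as particular to the members. That array had an actin gap of 2.95, against 4.61 and 4.39 in the other 48 h arrays of the dose, and a hepatocyte mean of 10.8, against 5.23 and 11.3.

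The doses differed from each other at 4 h in cortex in 4 members, of which Syt11, Syt1 and Stxbp5 were lower and Rab3ip higher after 18 than after 3 mg/kg. The 4 were 5.33% of the members, against 3.7% of all probe sets called. Over all 111 member probe sets 10 passed (9.01%), 9 of them lower after 18 mg/kg, in 10 genes. At 48 h 1 member passed, Vamp5, against 1.32% of all probe sets. At 0 h and at 24 h limma called 0 members and 0% of all probe sets; 2 and 7 members had an unadjusted p under 0.05, against 4.35 and 12.4% of all probe sets. Arrays of the doses did not overlap in 7, 26, 8 and 18 members at 0, 4, 24 and 48 h (8.37, 38.4, 12.1 and 24.6% of all probe sets). The median difference of the members was 0.01 at 4 h and -0.02 at 48 h, and that of all probe sets 0.02 and 0.00.

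Syt1 read 6.74, 6.80 and 6.80 at 4 h after 3 mg/kg and 6.01, 6.12 and 6.19 after 18 mg/kg. Every array of the high dose lay below every array of the low dose, a difference of -0.67 ± 0.16 (SE, n = 3 per group; adjusted p = 0.044, limma). Syt11, a relative that does not bind calcium and acts in membrane retrieval, read 6.16, 6.23 and 6.44 after 3 mg/kg and 5.17, 5.69 and 5.48 after 18 mg/kg. The groups were again apart, by -0.83 ± 0.17 (adjusted p = 0.044). The same genes differed by 0.11 and -0.05 between the dose groups at 0 h.

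Stxbp5 read 10.21, 10.08 and 10.02 at 4 h after 3 mg/kg and 9.46, 9.48 and 9.66 after 18 mg/kg. The difference was -0.57 ± 0.14 (adjusted p = 0.044), and at 48 h it was 0.05. Its 2 further probe sets differed by -0.32 ± 0.13 (adjusted p = 0.12) and -0.0036 (adjusted p = 0.99) at 4 h, and neither passed. Rab3ip read 6.69, 7.08 and 7.23 after 3 mg/kg and 7.65, 7.35 and 7.42 after 18 mg/kg. It was higher by 0.47 ± 0.13 (adjusted p = 0.048), and its other probe set had a difference of -0.26 (adjusted p = 0.32). Syt1 and Syt11 have a single probe set each.

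Vamp5 at 48 h read 6.90, 7.02 and 6.84 after 3 mg/kg and 6.25, 6.60 and 6.38 after 18 mg/kg. The groups did not overlap, and the difference was -0.51 ± 0.12 (adjusted p = 0.047). At 0 h Vamp5 differed in the opposite direction, by 0.29 (adjusted p = 0.99). In the test of whether the time courses differed between the doses Vamp5 had the smallest p of the members (adjusted p = 0.16), and 0 of the 75 passed, against 0.00322% of all probe sets; 10 members (13.3%) had an unadjusted p under 0.05, against 16.7% of all probe sets.

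**Figure D2:**
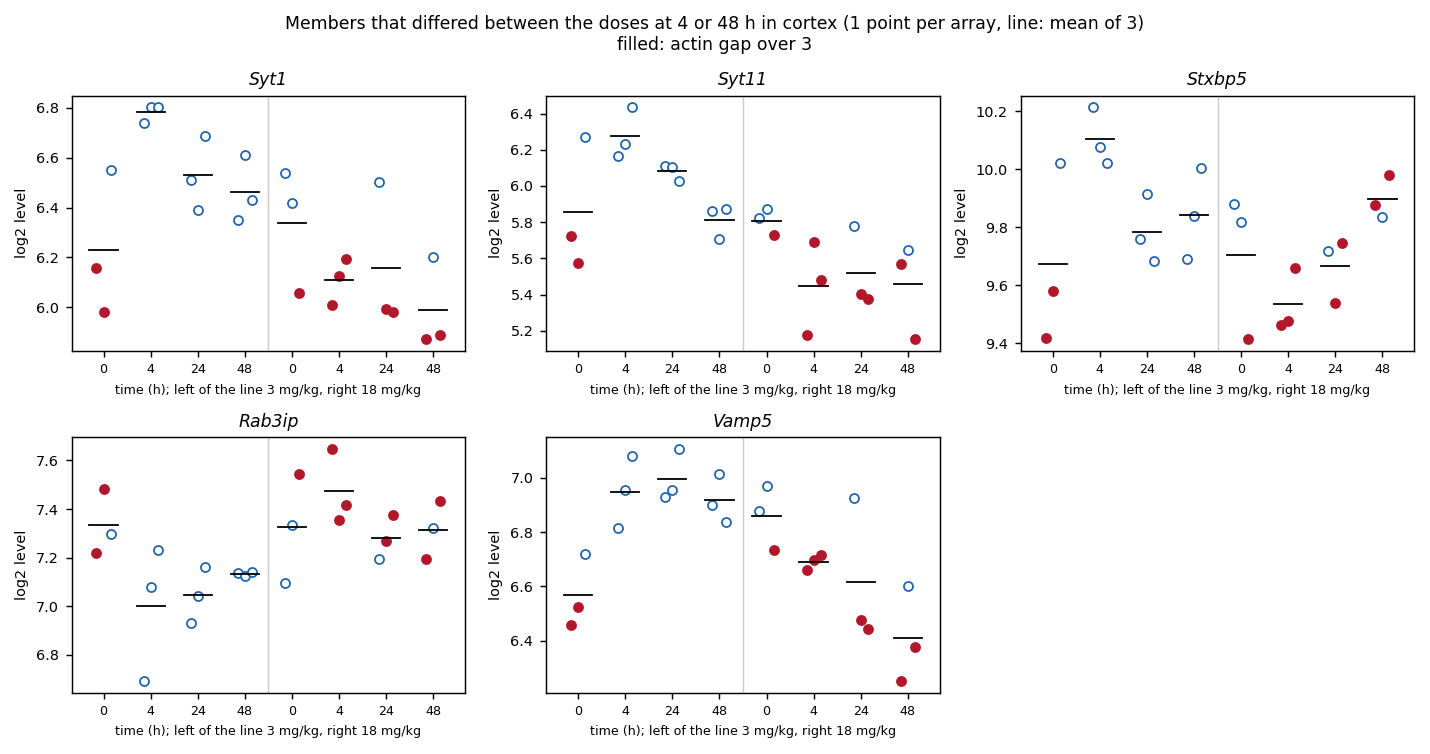
Log2 level of the 5 members that differed between the doses at 4 or 48 h in cortex, by time (h) and dose, 1 point per array, lines at the mean of 3. Filled points are arrays with an actin gap over 3; at 4 h all 3 arrays of 18 mg/kg are filled and lie apart from the 3 arrays of 3 mg/kg in Syt1, Syt11, Stxbp5 and Rab3ip.

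The actin gap was set apart between the same groups. At 4 h it averaged 2.09 (1.65 to 2.31) after 3 mg/kg and 3.66 (3.33 to 4.03) after 18 mg/kg, and at 48 h 2.34 (2.11 to 2.73) and 3.98 (2.95 to 4.61). With the gap as a covariate 0 members passed at either time, and the differences at 4 h were -0.49 in Syt11 (adjusted p = 0.73, limma) and -0.29 in Syt1, -0.40 in Stxbp5 and 0.40 in Rab3ip (adjusted p = 0.81 each). That of Vamp5 at 48 h was -0.21 (adjusted p = 0.77). The gap did not overlap between the doses at either time, so dose and gap are not well separated in this fit. Hepatocyte transcripts averaged over 8 in 1 array of each dose at 4 h, and in 1 of 3 mg/kg and 2 of 18 mg/kg at 48 h. With their mean as a covariate 0 members passed at either time; without the 6 cortex arrays above 8, 0 passed at 4 h and Vamp5 alone at 48 h, where 18 mg/kg kept 1 array. Shares of all probe sets that passed under these settings are not given here, so the counts are not read as particular to the members. The part of either measure in these differences was not tested further.

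The calls also changed when single arrays were left out, which leaves fewer arrays in a group. At 4 h 0 members passed when any 1 of the 6 arrays was left out, and Syt11 alone passed when 1 probe set per gene was tested. At 48 h 0 passed without any 1 of 5 arrays, and 11 passed without 18 mg/kg 48 h replicate 2, among them Snap25, Syn1, Syt1, Sv2a and Cplx2. At 24 h, where 0 had passed, 4 did without 18 mg/kg 24 h replicate 1 (Stx16, Syt11, Vamp5 and Vamp8). For these counts the shares of all probe sets that passed are not given here, so they are not read as particular to the members.

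Other genes of the release pathway differed between the doses at 4 h as well. Of 16 vesicle proteins and transporters 1 passed, the vesicular glutamate transporter Slc17a7, with a difference of -2.01 ± 0.52 (adjusted p = 0.046, limma). Of 21 active zone genes 2 passed, both lower, with Pclo (piccolo, an active zone scaffold) at -1.33 ± 0.30, and of 19 retrieval genes 2, both lower, with Amph (amphiphysin, a partner of dynamin) at -0.97 ± 0.23 (adjusted p = 0.044 for both genes). Of the 4 disassembly genes 0 passed. Among all probe sets 3.7% passed at 4 h. At 48 h, where 1.32% of all probe sets passed, Dnajc5, a vesicle chaperone, was higher by 0.46 ± 0.11. Ap2s1, a clathrin adaptor subunit, differed by -2.0 ± 0.39. Their adjusted p-values, and how many genes of the lists passed at 48 h, are not given here. With the actin gap itself 5 of 16, 6 of 21, 1 of 4 and 10 of 19 genes of these lists differed in cortex, against 26.2% of all probe sets, with slopes of -0.87 in Slc17a7, -0.48 in Pclo and -0.39 in Amph.

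Within the dose and time groups of cortex, members differed with the actin gap of the array. The slope on the gap passed for 13 of the 75 members (17.3%), 6 rising and 7 falling, against 26.2% of all probe sets, 12.8% rising and 13.4% falling. The members that rose were Cplx2, Syt6, Syt10, Syn1, Stx16 and Syt17, and those that fell were Vamp8, Syt1, Stxbp3, Syt11, Vamp5, Syt13 and Stx12. Of the 5 members that differed between the doses, Syt1, Syt11 and Vamp5 were thus among those that fell with the gap, whereas Stxbp5 and Rab3ip did not pass here. Leaving out single arrays gave between 11 and 17 members, and leaving out the 6 arrays with high hepatocyte transcripts gave 10. Shares of all probe sets under these settings are not given here, so neither count is read as particular to the members.

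Cplx2, a complexin of glutamatergic neurons, had the largest slope, 1.24 ± 0.15 log2 units per unit of gap (adjusted p = 1e-05, limma). In the 10 arrays with a gap over 3 it lay between 8.01 and 9.37 (median 8.83), and in the other 14 between 5.84 and 7.12 (median 6.69). The classes did not touch, and the split ran through single groups: at 0 h after 3 mg/kg Cplx2 read 8.65, 8.84 and 6.92 at gaps of 3.18, 3.60 and 1.88. Syt6 (4.85 to 5.67 against 4.30 to 4.56), Syt10 (4.77 to 5.52 against 4.48 to 4.66) and Syt1 (5.87 to 6.19 against 6.20 to 6.80) were also without overlap. These 4 were 5.33% of the members, and 5.67% of all probe sets showed as much.

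**Figure D3:**
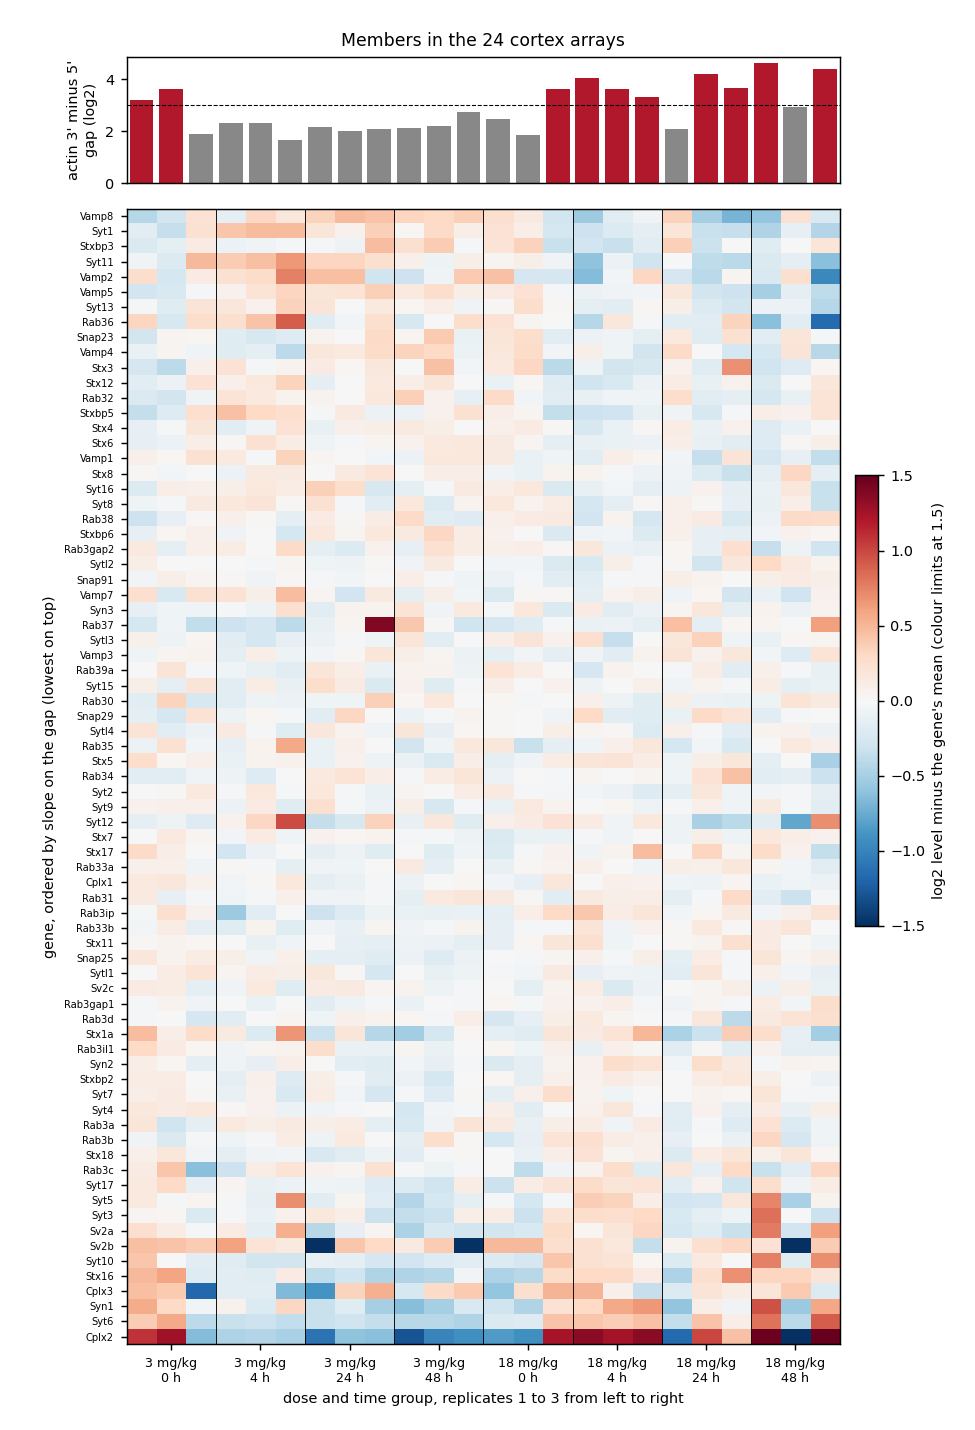
Level of the 75 members in the 24 cortex arrays as the log2 value minus the gene's mean, with the genes ordered by their slope on the actin gap, which the bars on top show per array (filled red above 3). Cplx2 at the bottom is high in the 10 arrays with a gap over 3 and low in the other 14, and Syt1 near the top is low in the 10.

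The probe sets of a gene could behave differently with the gap. For the 29 members with more than 1 probe set, 4 of the 29 representing probe sets passed, 2 rising and 2 falling. Of their 36 other probe sets 17 passed, 1 rising and 16 falling. Among all probe sets 26.2% passed, 12.8% rising and 13.4% falling. The same split by probe set is not given here for other genes, so it is not read as particular to the members. The 16 falling probe sets belonged to 16 genes, and in none of these genes did the representing probe set also fall. For Vamp1 a further probe set had a slope of -1.27 ± 0.10 per unit of gap (adjusted p = 1.2e-07, limma), with 4.72 to 6.69 in the 10 arrays with a gap over 3 and 6.97 to 8.95 in the other 14. The representing probe set of Vamp1 read 10.70 to 11.25 and 10.94 to 11.39 in the same arrays.

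Cplx1, Syn2, Stx1a and Rab3a showed the same contrast between their probe sets. The further probe set of Cplx1 had a slope of -0.77 ± 0.067 (5.58 to 6.52 against 6.58 to 8.38), while the representing one stayed between 12.40 and 12.70 in all arrays. Further probe sets of Syn2, Stx1a and Rab3a had slopes of -0.94 ± 0.11, -0.62 ± 0.089 and -0.78 ± 0.21. At 4 h some of them set the doses apart too: that of Cplx1 by -1.75 ± 0.43 (adjusted p = 0.045) and that of Stx1a by -1.59 ± 0.39 (adjusted p = 0.044), where the representing ones differed by -0.00037 and 0.09. Whether a dose difference in these genes was seen therefore turned on the probe set.

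**Figure D4:**
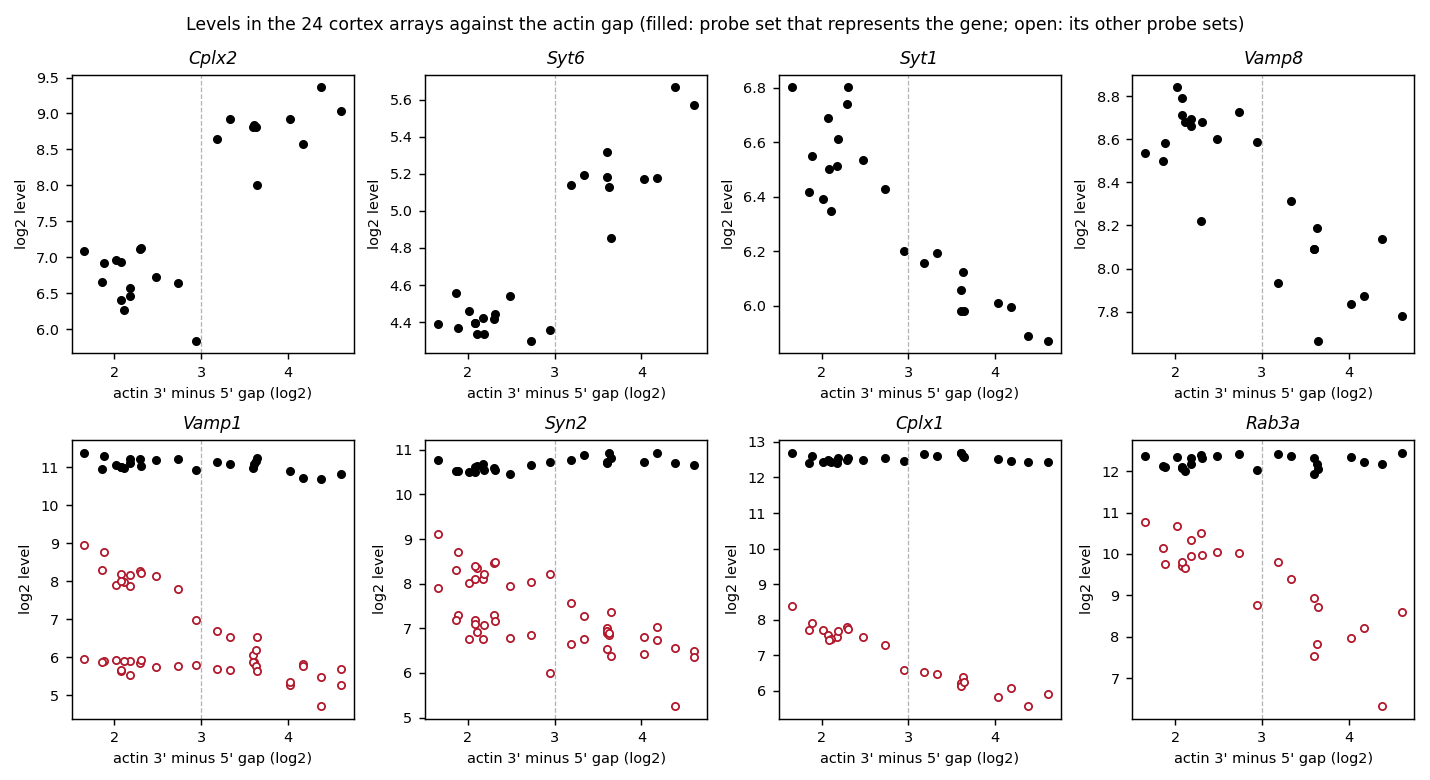
Log2 level in the 24 cortex arrays against the actin gap (log2) for 4 members with a slope in their representing probe set (top) and 4 members with further probe sets (bottom; filled, representing; open, further). Cplx2 and Syt6 step up and Syt1 steps down across a gap of 3, and in the bottom row at least 1 open series per gene falls, from 8.95 to 4.72 in Vamp1, while the filled points vary little.

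In liver the members passed against 0 h in 1 comparison, 48 h after 3 mg/kg, with 9 members: 7 higher, among them Stx7, Vamp3, Sytl2 and Rab3ip, and 2 lower, Stx17 and Syt2. They were 12% of the members, against 9.34% of all probe sets. Without the 11 other Rab genes 8 passed. In the other 5 comparisons 0 members passed, against 0.0226% and 0% of all probe sets at 4 and 24 h after 3 mg/kg and 0.0258%, 0% and 0.0966% at 4, 24 and 48 h after 18 mg/kg. At an unadjusted p under 0.05 were 11 and 18 members in the former pair (14.7 and 24%), against 14.2 and 20% of all probe sets, and 8, 2 and 0 in the latter 3 (10.7, 2.67 and 0%), against 11.4, 2.43 and 1.67%. All later groups together against 0 h called 0 members, against 0.0483%, with 9 (12%) at an unadjusted p under 0.05, against 15.1% of all probe sets. Between the doses 0 members passed at their representing probe sets at 0, 4, 24 or 48 h, against 0%, 0%, 0.087% and 0.029% of all probe sets, and 1 of the 111 member probe sets, a further one of Rab30, passed at 24 h. Unadjusted p-values under 0.05 were held by 22, 7, 2 and 0 members (29.3, 9.33, 2.67 and 0%), against 21.4, 9.79, 3.01 and 2.52% of all probe sets. Arrays of the groups did not overlap in 11, 16 and 32 members at 4, 24 and 48 h after 3 mg/kg (20.6, 18.9 and 36.3% of all probe sets) and in 9, 7 and 4 after 18 mg/kg (11.4, 9.74 and 9.54%). Between the doses they did not overlap in 15, 7, 7 and 14 members at 0, 4, 24 and 48 h (20.1, 15.5, 8.98 and 16.1%).

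Stx17 read 7.96, 8.28 and 6.43 at 0 h in the 3 mg/kg groups and 6.0, 5.90 and 6.09 at 48 h. The groups did not overlap, and the change was -1.57 ± 0.36 (adjusted p = 0.025, limma). Syt2, a fast calcium sensor of hindbrain synapses, was low throughout, at 5.59, 6.11 and 4.97 at 0 h and 4.59, 5.08 and 4.52 at 48 h, and its groups overlapped (-0.83 ± 0.25, adjusted p = 0.041).

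Among the genes that were higher, Stx7, a syntaxin of late endosomes, read 9.01, 7.55 and 9.61 at 0 h and 10.29, 10.20 and 10.31 at 48 h. Every 48 h array was above every 0 h array, by 1.54 ± 0.37 on average (adjusted p = 0.026). Vamp3, the cellubrevin of recycling endosomes, read 8.45, 7.35 and 9.32 at 0 h and 9.78, 9.70 and 9.92 at 48 h (1.43 ± 0.38, adjusted p = 0.030). Sytl2 read 6.31, 5.02 and 7.33 at 0 h and 7.77, 7.49 and 8.12 at 48 h (1.57 ± 0.42, adjusted p = 0.032). In both genes the groups were apart, and replicate 2 of 0 h was the lowest of the 6 arrays.

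Rab3ip read 6.67, 5.86 and 7.97 at 0 h and 8.32, 8.25 and 8.69 at 48 h (1.59 ± 0.46, adjusted p = 0.038). Rab38 read 9.38, 7.49 and 9.92 at 0 h and 10.09, 10.17 and 10.28 at 48 h (1.25 ± 0.39, adjusted p = 0.048). Stx6, a syntaxin of the trans-Golgi network, read 7.11, 6.01 and 6.95 at 0 h and 7.35, 7.43 and 7.77 at 48 h (0.83 ± 0.25, adjusted p = 0.044). In these 3 genes too the groups were apart and replicate 2 of 0 h lay lowest. Stxbp5 was even within the groups, at 6.51, 6.30 and 6.46 at 0 h and 7.29, 7.21 and 7.14 at 48 h, a change of 0.79 ± 0.24 (adjusted p = 0.042). In liver Rab3ip and Stxbp5 were represented by other probe sets than in cortex.

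**Figure D5:**
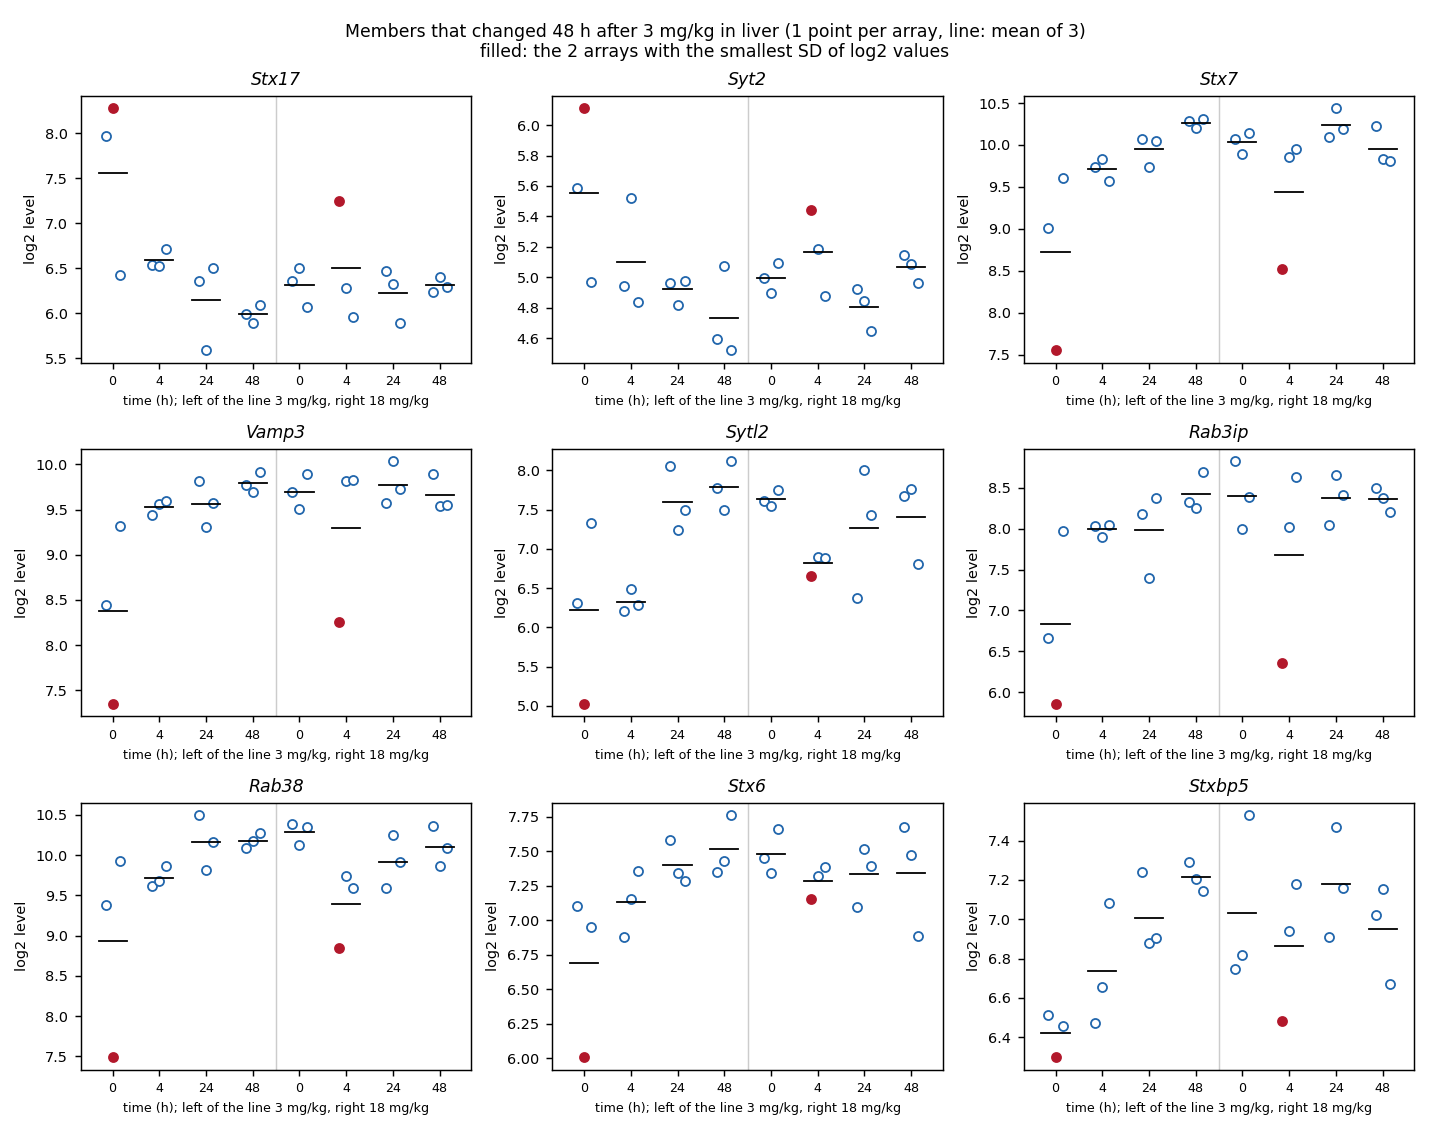
Log2 level of the 9 members that passed 48 h after 3 mg/kg in liver, by time (h) and dose, 1 point per array, lines at the mean of 3. Filled points are the 2 arrays with the smallest SD of log2 values; the filled array of 0 h is the lowest of its group in 7 panels, at 7.55 in Stx7 for example, and the highest in Stx17 (8.28) and Syt2 (6.11).

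The broadly expressed relatives were mixed in this comparison. Snap23 had 0.08 (95% interval -0.37 to 0.52), Vamp8 -0.02 (-1.30 to 1.26), Stxbp2 -0.17 (-0.61 to 0.27) and Stx3 -0.05 (-0.52 to 0.42). Stx4 and Stx5 had 0.87 and 0.54 (adjusted p = 0.22 and 0.16), Stxbp3 1.08 (0.091) and Rab3d 0.47 (0.23), each with groups that did not overlap. Rab3gap1, a subunit of the Rab3 GTPase-activating complex, and Sytl4 had -0.59 and -0.62 (adjusted p = 0.076 and 0.074). In all, 32 of the 75 members had groups without overlap, and 36.3% of all probe sets did. Of the pathway lists Nsf, the ATPase that takes SNARE complexes apart, was higher by 0.82 ± 0.20 (adjusted p = 0.026), 1 of 2 disassembly genes of 4 that passed, both higher.

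These calls depended on which arrays of either group were kept. In the 0 h group of 3 mg/kg replicate 2 had an SD of 1.49 and replicate 1 an SD of 1.82. The count was 0 without replicate 2 of 0 h (0% of all probe sets). It was 2 without replicate 1 (Stx6 and Stx7), or 2.67% against 4.68% of all probe sets. Without replicate 3 it was 25 (33.3%, against 25% of all probe sets). It was 0 without any 1 of the 48 h arrays, where at most 0.477% of all probe sets passed. Without both arrays of smallest SD it was 3 (Stx17, Stx7 and Vamp3), or 4% against 4.42% of all probe sets. After quantile normalisation it was 4 (5.33%, against 5.38%). Against both 0 h groups pooled, and in a fit of the 6 arrays alone, it was 0, with 0% of all probe sets. The 0 h groups of the doses differed by 1.31 in Stx7, 1.33 in Vamp3 and -1.24 in Stx17 (adjusted p = 0.11 each, limma). Hepatocyte transcripts averaged 13.02 at 0 h (12.21 to 13.57) and 13.71 at 48 h (13.68 to 13.74), and the actin gap 3.85 and 3.15. With the gap as a covariate 41 members passed (54.7%), against 46.5% of all probe sets; the part of these measures was not tested further. After 18 mg/kg the changes at 48 h were -0.08 in Stx7, -0.04 in Vamp3 and -0.0031 in Stx17 (adjusted p = 1 for each). Whether the time courses differed between the doses was tested: 0 members passed (0.00966% of all probe sets; 7 members, 9.33%, at an unadjusted p under 0.05, against 9.54% of all), with Rab30 at the smallest adjusted p, 0.49.

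In the other liver comparisons the members with the smallest p were these. Vamp3 read 9.44, 9.56 and 9.59 at 4 h after 3 mg/kg (1.16, adjusted p = 0.27, limma), and Stx17 6.36, 5.59 and 6.50 at 24 h (-1.41, adjusted p = 0.086), both against the 0 h arrays given above. Vamp5 read 6.20, 8.30 and 8.63 at 4 h after 18 mg/kg, against 9.14, 9.41 and 8.71 at 0 h (-1.37, adjusted p = 0.39). The lowest of these, 6.20, was the array with the smallest SD.

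Rab30, a Golgi Rab and 1 of the other Rab genes, was the most variable member in liver, from 6.22 to 10.47. At 24 h it read 7.40, 6.79 and 7.05 after 3 mg/kg and 9.51, 8.27 and 9.89 after 18 mg/kg. The groups were apart by 2.15 ± 0.52, and the difference did not pass at this probe set (adjusted p = 0.25). The further probe set of Rab30 differed by 1.80 ± 0.31 and passed (adjusted p = 0.027, limma). The representing one did pass without the 2 liver arrays of smallest SD and with the actin gap as a covariate.

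The change from 0 h to the later times differed between cortex and liver in 0 of the 75 members, against 0.0322% of all probe sets; 6 members had an unadjusted p below 0.05, against 10% of all probe sets. Without liver 3 mg/kg 0 h replicate 3 the count was 4 (Snap29, Stx17, Stx7 and Vamp3), for which the share of all probe sets is not given here. Spread set what could be seen: the SD within a group had a median of 0.15 over the members in cortex and 0.33 in liver, near the 0.16 and 0.33 of all probe sets. The range of a member's 8 group means had a median of 0.31 in cortex and 0.62 in liver, against 0.35 and 0.63 for all probe sets.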

How the data were processed

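Total RNA of cortex and liver was hybridised to Affymetrix rat expression arrays. The authors deposited log2 values made with RMA in Partek, per the submitters' processing notes, which give no versions; RMA evens out the arrays, so a change shared by most genes would not be seen. Detection calls are not used here. Of 31099 probe sets 57 controls were left out, no filter on level was set, and 20826 carry 1 gene symbol, 436 several and 9780 none in the platform annotation. Groups were fitted per tissue with limma 3.58.1 in R 4.3.3 (24 arrays, 8 groups; 48 arrays and 16 groups for the tissues), with Benjamini-Hochberg adjustment over all 31042 probe sets and a threshold of 0.05. The code was tested on simulated data. Values by array are given for members that passed, those with the smallest p and the release core. Members and lists were chosen with earlier results of these data known. Alternatives covered normalisation, centring, dim probe sets, the probe set of a gene, replicate numbers, integrity and hepatocyte covariates and left-out arrays. Same-numbered arrays of different groups did not deviate together (median correlation -0.04 in cortex and 0.006 in liver). Between cortex and liver arrays of the same dose, time and number the median correlation was 0.06 (-0.10 to 0.20). The numbers were therefore not taken as pairs. The number of arrays limits the precision.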

Additional observations from a re-analysis of the deposited data

How the results depend on the processing

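Under other settings 552 counts of members stayed near the main count and 49 moved away from it. Counts of 0 that stayed 0 are among the 552, so that number says little about the comparisons in which members passed. In cortex the dose difference at 4 h, with 4 members, gave 1 with 1 probe set per gene and 0 with the actin gap or the hepatocyte mean as a covariate or without the 6 arrays of high hepatocyte mean, and 0 (0 to 0) without single arrays. That at 48 h, with 1 member, gave 0 with either covariate and 0 to 11 without single arrays; that at 24 h, with 0, gave 4 without the 6 arrays and 0 to 4 without single arrays. Without single arrays, 48 h against 0 h after 18 mg/kg gave 0 to 6 and the dose difference in the cortex time course 0 to 4. The shares of all probe sets under these cortex settings are not given here. In liver the actin gap as a covariate gave 6, 30 and 41 members at 4, 24 and 48 h after 3 mg/kg, 20 for all later times, 25 for the doses at 0 h and 1 at 24 h, against 5.71, 31.5, 46.5, 20.6, 27.9 and 0.129% of all probe sets. The 9 members at 48 h became 4 after quantile normalisation (5.38% of all probe sets), 0 against the pooled 0 h groups (0%) and 0 in the 6 arrays alone (0%). Without the 2 arrays of smallest SD they became 3 (4.42% of all probe sets), and the doses at 24 h gave 1 (0.177%). Without single arrays the liver counts at 4, 24 and 48 h after 3 mg/kg were 0 to 7, 0 to 11 and 0 to 25, with 0 to 6 for later times, 0 to 12 for the doses at 0 h, 0 to 1 for the time course and 0 to 4 for the tissue difference in change. The highest of each of these liver ranges came without 3 mg/kg 0 h replicate 3. Without that array 5.83, 12.2 and 25% of all probe sets passed at 4, 24 and 48 h after 3 mg/kg. The shares were 6.62% for later times, 13.3% for the doses at 0 h and 0.428% for the time course. With the replicate number as a block, which the arrays do not bear out as a pairing, the cortex dose differences at 4 and 48 h gave 0 and 0, liver at 48 h gave 10 and the tissues 68. The causes were not tested.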

Other observations

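The following values were chosen after they were seen, and none was tested. Sv2b, a vesicle glycoprotein, read 10.31, 10.95 and 10.09 in cortex 3 mg/kg 24 h replicate 1, 3 mg/kg 48 h replicate 3 and 18 mg/kg 48 h replicate 2, and between 12.07 and 13.03 in the other 21 cortex arrays. Of its 2 other probe sets 1 read 8.92, 8.69 and 8.14 in those arrays and the other 4.79, 4.73 and 4.50, both inside their ranges over the other cortex arrays. Vamp8 in liver read 7.58 in 18 mg/kg 4 h replicate 1, 9.67 in 24 h replicate 2 and 10.62 in 48 h replicate 1 of the same dose, and at least 11.15 elsewhere. Cplx2 was lowest in cortex 18 mg/kg 48 h replicate 2, at 5.84, where the other arrays of its group read 9.04 and 9.37. The actin gap was 2.95 in that array and 4.61 and 4.39 in the others of the group.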
